A study of Homo sapiens with 9 samples.

Results

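The polypeptide GalNAc-transferases, encoded by the GALNT genes, were measured in T84 and Caco-2, 2 human epithelial lines from colon carcinomas. The members were taken by matching the RefSeq identifier of each probe set to 10 listed genes: GALNT1 to GALNT7, GALNT10, GALNT11 and GALNT12. A match was found for 9 of the 10, each with 1 probe set, out of 927 genes and 1259 probe sets on the array. GALNT10 had no match and was not analysed here.

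The study looked for glycosylation genes behind the GM35 epitope, a sialylated form of CD44v6 that interferon gamma raises in T84 cells and that Caco-2 cells lack. T84 cells treated with 100 U/ml interferon gamma for 24 hours, untreated T84 cells and untreated Caco-2 cells each gave 3 single-colour arrays. Untreated T84 cells were at passage 68 and Caco-2 cells at passage 37, both about 90% confluent. Passage and confluence of the treated cells are not stated in the labels. The labels number the replicates without naming separate cultures, so the spread behind each p-value is that between these samples and may be technical. In RNA from whole cultures, fewer cells of a type and less RNA per cell cannot be told apart. Each line is a single tumour-derived line, so line, passage and everything else that separates the 2 lines cannot be told apart.

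GALNT enzymes start mucin-type O-glycosylation in the Golgi by moving GalNAc from UDP-GalNAc to serine or threonine of a protein, which forms the Tn antigen. Other enzymes then extend Tn to core structures or cap it with sialic acid. The family has many isoenzymes with overlapping but distinct peptide preferences. Some act early on bare peptides, whereas others prefer sites close to GalNAc already attached, so the set of isoenzymes in a cell helps decide which sites of mucins and mucin-like proteins carry O-glycans.

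In interferon-treated against untreated T84, most of the family had no called change. The 2 members called, GALNT11 and GALNT12, were lower, where 5.8% of all probe sets were lower. The GALNT11 call did not hold with every choice of arrays. Between the lines, GALNT4, GALNT5 and GALNT12 were higher in T84 than in Caco-2, and GALNT11 and GALNT2 were lower. GALNT1, GALNT3 and GALNT7 varied so widely between replicates that no difference of theirs passed over all arrays. Values are log2 signals as deposited, on which 1 unit is a 2-fold difference. Levels of different probe sets are not set against each other, because probe sets differ in how strongly they bind.

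The promoters of GALNT11 and GALNT12 are shown because these genes were the members called after interferon gamma. The RefSeq-derived table (GRCh38.p14) held promoters for 7 of the 10 listed genes, each window running from 250 bases before to 50 bases after a gene's start. The GALNT11 window lies at chr7:152074787-152075086 and the GALNT12 window at chr9:98807420-98807719, both on the plus strand. The GALNT11 start used there lies within the gene's annotated span (chr7:152025674-152122340), downstream of its first base. The capitals mark the first bases from the annotated start.
GALNT11: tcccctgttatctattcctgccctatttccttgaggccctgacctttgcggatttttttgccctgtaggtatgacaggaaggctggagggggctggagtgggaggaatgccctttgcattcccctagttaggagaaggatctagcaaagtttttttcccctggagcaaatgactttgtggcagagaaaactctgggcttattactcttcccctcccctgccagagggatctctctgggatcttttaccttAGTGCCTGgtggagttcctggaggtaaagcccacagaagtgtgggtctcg
GALNT12: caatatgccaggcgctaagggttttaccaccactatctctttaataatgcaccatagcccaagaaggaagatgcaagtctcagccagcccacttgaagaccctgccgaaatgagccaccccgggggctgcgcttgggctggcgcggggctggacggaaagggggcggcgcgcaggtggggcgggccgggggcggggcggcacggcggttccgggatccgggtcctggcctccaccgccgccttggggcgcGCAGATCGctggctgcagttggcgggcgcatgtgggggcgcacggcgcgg
The GALNT11 window had 51.3% G and C and 2 CG dinucleotides, and the GALNT12 window 68.7% and 29, beside medians of 58.7% and 14 over 35116 promoters of the same length.

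Before the comparisons, the arrays themselves need a word, because the GALNT genes were strongly touched. Array medians ran between 6.70 and 6.80. Deviations of the arrays from their group means were largely shared: the first principal component of these deviations held 70.9% of their variance. Scores on it sum to 0 within a group by construction, so some array of each group must be positive. In Caco-2, replicate 1 had 0.68 and the others -0.37 and -0.32, and in untreated T84, replicate 3 had 0.40 and the others -0.24 and -0.15, so these 2 arrays stood apart from the rest of their groups. In treated T84 the scores were spread evenly, at -0.17, -0.004 and 0.18, and replicate 3 stood no further out than replicate 1. The labels name no batch. Results are given with and without the 3 arrays of positive score, and also without only the 2 that stand apart where that differs, choices made after the data were seen. The interferon gamma label was borne out by CXCL9, CXCL10 and ICAM1, which were higher in treated than in untreated T84 by 6.12, 5.11 and 3.17 log2 units (limma adjusted p at or below 3.98e-06). Of 13 colon epithelial markers 4 were measured, and LGALS4, MUC13, MUC2 and FUT3 were all higher in T84 than in Caco-2, treated or not. LGALS4, an intestinal galectin, was at 12.45 to 12.50 in treated T84, 12.98 to 13.04 in untreated T84 and 6.82 to 6.96 in Caco-2. The summed linear signal of 8 measured leukocyte markers, of 16 listed, ran from 439 to 459 in treated T84, from 415 to 451 in untreated T84 and from 399.9 to 435.5 in Caco-2. For 7 fibroblast and endothelial markers, of 12 listed, it ran from 221 to 239, from 230.1 to 236 and from 348 to 386. None of these markers has a detection call in the deposited values, and their part in the differences between the lines was not tested.

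GALNT1, GALNT3 and GALNT7 carried this shared deviation more than nearly all other probe sets. By the size of their part in it they ranked 14, 6 and 16 of 1259, and it held 99.8, 99.8 and 98.8% of their own spread within groups. GALNT3 showed log2 signals of 10.15, 9.71 and 9.34 in treated T84, against 9.95, 9.71 and 8.38 in untreated T84, and of 8.996, 9.25 and 6.66 in Caco-2, with the array of positive score given last in each group. That array was the lowest of its group each time. In Caco-2 it lay 2.46 log2 units below the mean of the other 2. GALNT1, one of the most widely expressed isoenzymes, had 9.02, 8.75 and 8.38 in treated T84, against 9.41, 9.22 and 8.03 in untreated T84, and 8.59, 8.72 and 6.62 in Caco-2. GALNT7, which prefers peptides that already carry GalNAc, had 9.38, 9.03 and 8.73 in treated T84, against 9.13, 9.24 and 8.08 in untreated T84, and 8.33, 8.41 and 6.33 in Caco-2. Again the same 3 arrays were the lowest of their groups, in Caco-2 by 2.03 log2 units for both genes.

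**Figure D1:**
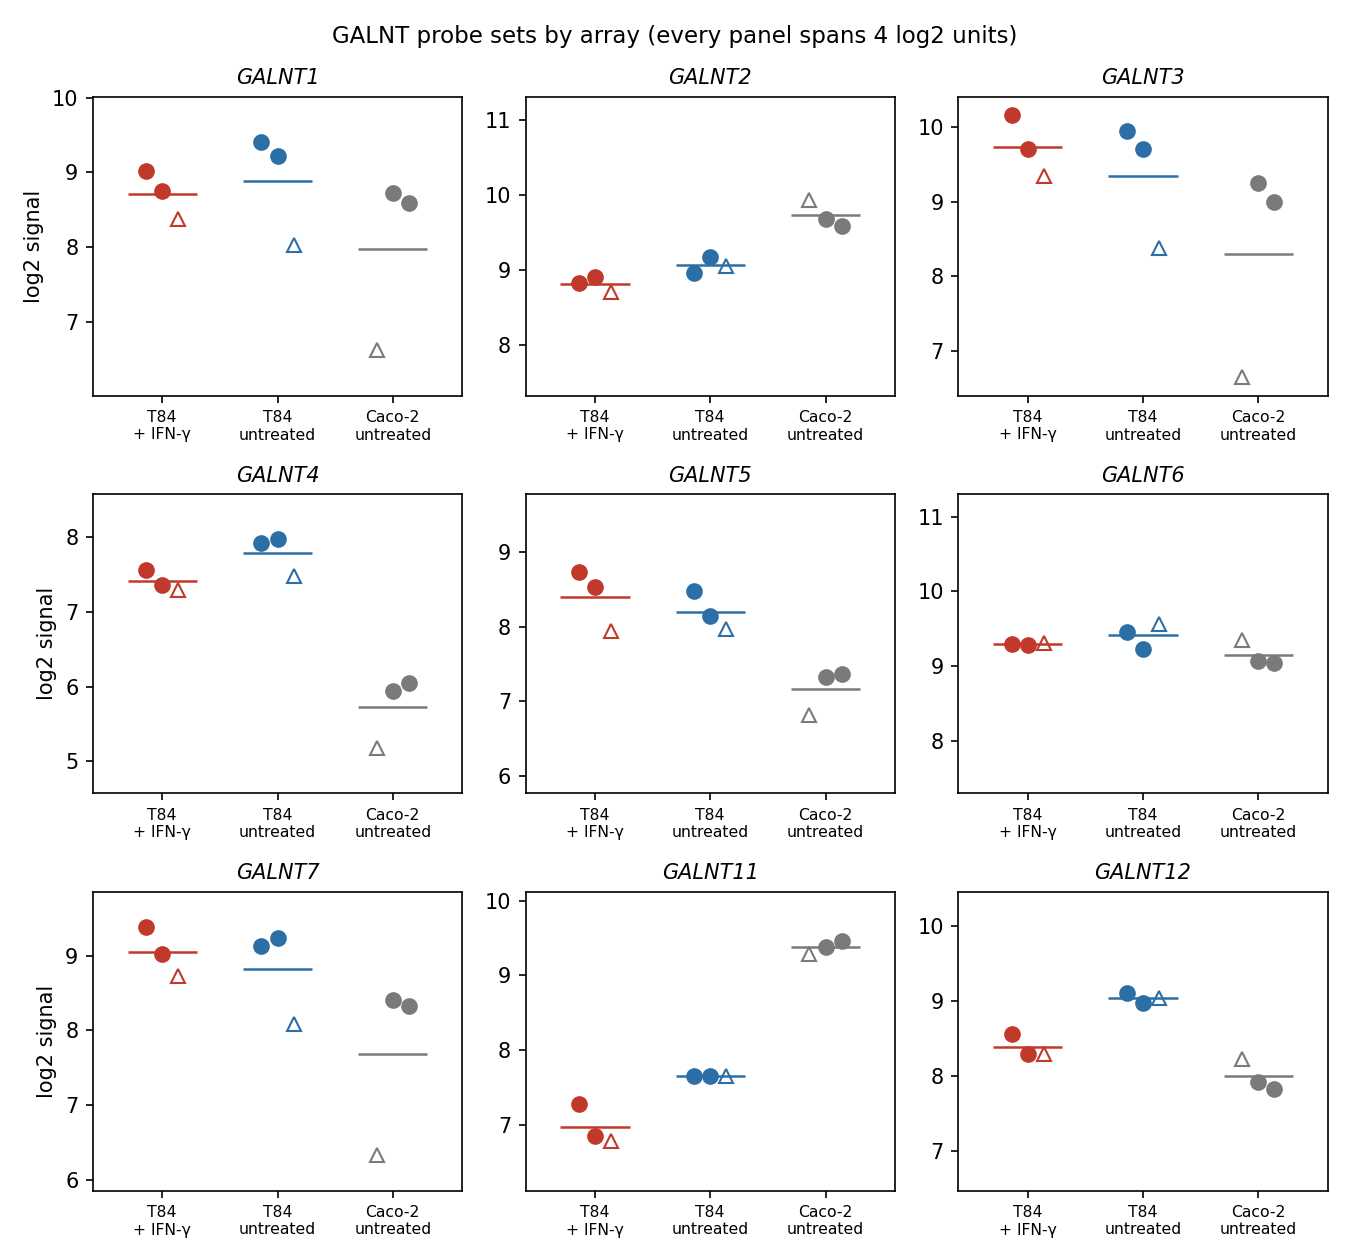
Log2 signal (vertical axis) of the 9 GALNT probe sets in treated T84, untreated T84 and Caco-2, 1 point per array, with lines at the group means. Open triangles are the 3 arrays of positive score on the shared deviation, which lie lowest in each group for GALNT1, GALNT3, GALNT4, GALNT5 and GALNT7.

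The other members ranked lower by the size of their part in it. For GALNT4 and GALNT5 the array of positive score was also the lowest in every group, by 0.17 to 0.81 log2 units for GALNT4 and 0.34 to 0.69 for GALNT5. These genes ranked 59 and 71, and the shared deviation held 96.4% and 63.9% of their own spread. GALNT2, GALNT6, GALNT11 and GALNT12 ranked between 242 and 478, and in Caco-2 replicate 1 GALNT2, GALNT6 and GALNT12 were higher, by 0.31, 0.30 and 0.36, than the mean of the other Caco-2 arrays. Of their own spread it held 66.2% for GALNT6, 32.0% for GALNT2, 25.3% for GALNT12 and 18.8% for GALNT11, so the members form a gradient.

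**Figure D2:**
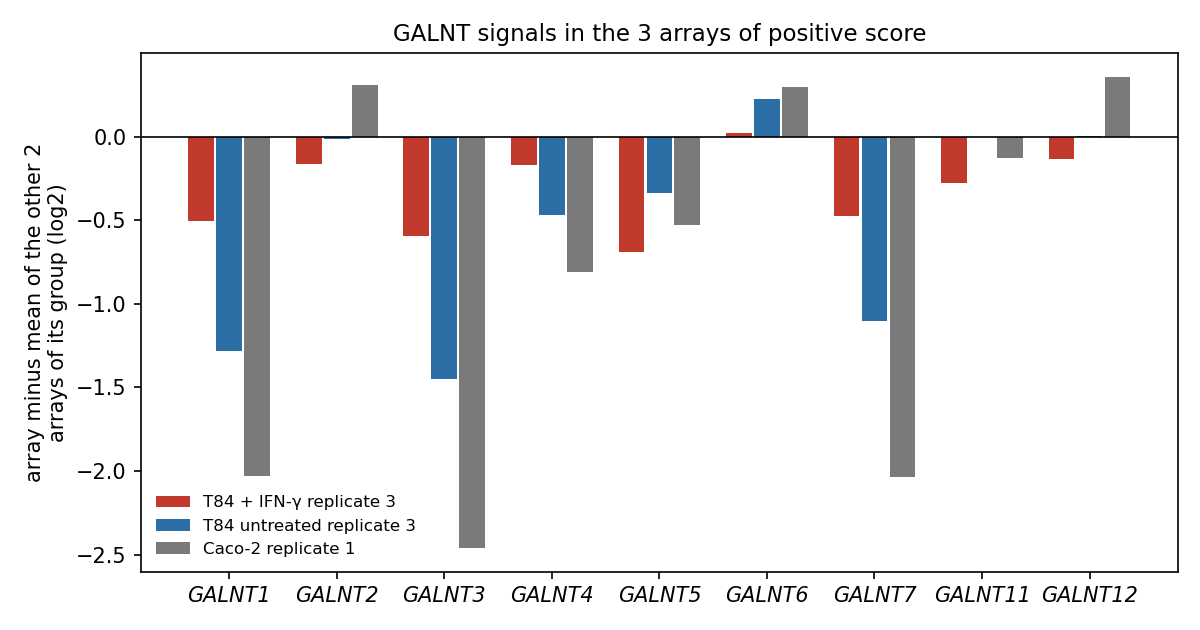
Difference in log2 signal between each array of positive score on the shared deviation and the mean of the other 2 arrays of its group, for 9 GALNT probe sets. GALNT1, GALNT3 and GALNT7 lie between 2.03 and 2.46 units lower in Caco-2 replicate 1, between 1.10 and 1.45 lower in untreated T84 replicate 3 and between 0.47 and 0.59 lower in treated T84 replicate 3.

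Interferon gamma within T84 cells was the first comparison. Interferon-treated T84 had 0 of the 9 measured members called higher and 2 called lower, where 4.37% of all 1259 probe sets were higher and 5.8% lower. At an unadjusted limma p below 0.05 there were 0 higher and 3 lower members. The median log2 fold change of the members was -0.17, beside -0.01 over all probe sets. The groups did not overlap for 3 members, GALNT2, GALNT11 and GALNT12, as they did not for 27.5% of all probe sets.

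GALNT12, which is expressed along the digestive tract and is closest in sequence to GALNT4, was at 8.56, 8.30 and 8.29 in treated T84, against 9.11, 8.97 and 9.04 in untreated T84. Every treated array lay below every untreated one. The means were 8.38 ± 0.15 and 9.04 ± 0.07 (SD, n = 3 each), a 1.58-fold decrease (95% confidence interval 1.31 to 1.89, limma adjusted p = 0.00749). Without the 3 arrays the log2 fold change was -0.61 (adjusted p = 0.0214).

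GALNT11, whose known substrates include the LDL receptor and NOTCH1, was at 7.28, 6.85 and 6.79 in treated T84, against 7.66 on all 3 arrays in untreated T84. The treated arrays lay below the untreated ones, whose deposited values were identical. Identical values on all 3 arrays of a group occurred at 25 probe sets in untreated T84, 19 in treated T84 and 7 in Caco-2, so a spread of 0 there is no measure of precision. GALNT11 was 1.61-fold lower in treated T84 (95% confidence interval 1.33 to 1.94, limma adjusted p = 0.00718). With the 3 arrays left out the log2 fold change was -0.60 and the call was lost (adjusted p = 0.0540), whereas without only the 2 arrays that stand apart it was kept at -0.69 (adjusted p = 0.0240). Over 22 alternatives its adjusted p ran from 0.00019 to 0.9999, the highest with each array centred on the median of the GALNT probe sets, which itself moved with the shared deviation.

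GALNT2, a broadly expressed isoenzyme that acts on bare peptides, was at 8.82, 8.90 and 8.70 in treated T84, against 8.96, 9.17 and 9.05 in untreated T84. These groups did not overlap, but the log2 fold change of -0.25 ± 0.10 (SE) did not pass (limma adjusted p = 0.211). GALNT4, which prefers sites near GalNAc already attached and is known to modify the selectin ligand PSGL-1, was at 7.56, 7.36 and 7.29 in treated T84, against 7.91, 7.97 and 7.48 in untreated T84. Its log2 fold change of -0.38 ± 0.23 did not pass over all arrays (adjusted p = 0.491). It passed at -0.48 without the 3 arrays (adjusted p = 0.0246), and over 22 alternatives its adjusted p ran from 0.00255 to 0.9999.

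GALNT3, GALNT5, GALNT6 and GALNT7 had log2 fold changes of 0.39 ± 0.69, 0.20 ± 0.23, -0.12 ± 0.11 and 0.23 ± 0.56 (SE). GALNT1 had one of -0.17 ± 0.58. None of the 5 passed, and their 95% confidence intervals ran as wide as -1.21 to 1.98 for GALNT3. Changes of up to several fold in GALNT1, GALNT3 and GALNT7 were thus not detectable over all 9 arrays. GALNT6, the closest relative of GALNT3, had the narrowest of these intervals (-0.37 to 0.12). When the 3 arrays were left out none of the 5 passed, with 2 of 9 members called in all, beside 9.21% of all probe sets. GALNT3, GALNT7 and GALNT1 were then at 0.10 ± 0.17, 0.02 ± 0.12 and -0.43 ± 0.11 (SE), and GALNT5 and GALNT6 at 0.32 ± 0.12 and -0.06 ± 0.08. Leaving out only the 2 that stand apart gave 3 of 9, GALNT4, GALNT11 and GALNT12, beside 12.0%. With the shared deviation as a covariate, 1 member was higher and 4 were lower. That fit called GALNT3 higher at 0.39 (adjusted p = 0.000906) and GALNT1 lower at -0.17 (adjusted p = 0.0400), along with GALNT4, GALNT11 and GALNT12. The covariate was taken from the same arrays, so its p-values are not independent of the result. Its scores sum to 0 within each group, so every log2 fold change stayed the same and only the standard errors changed. For GALNT3 the standard error went from 0.69 to 0.048, so these calls are no separate evidence. Over 22 alternatives the adjusted p ran from 0.00091 to 0.9999 for GALNT3 and from 0.040 to 1 for GALNT1.

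**Figure D3:**
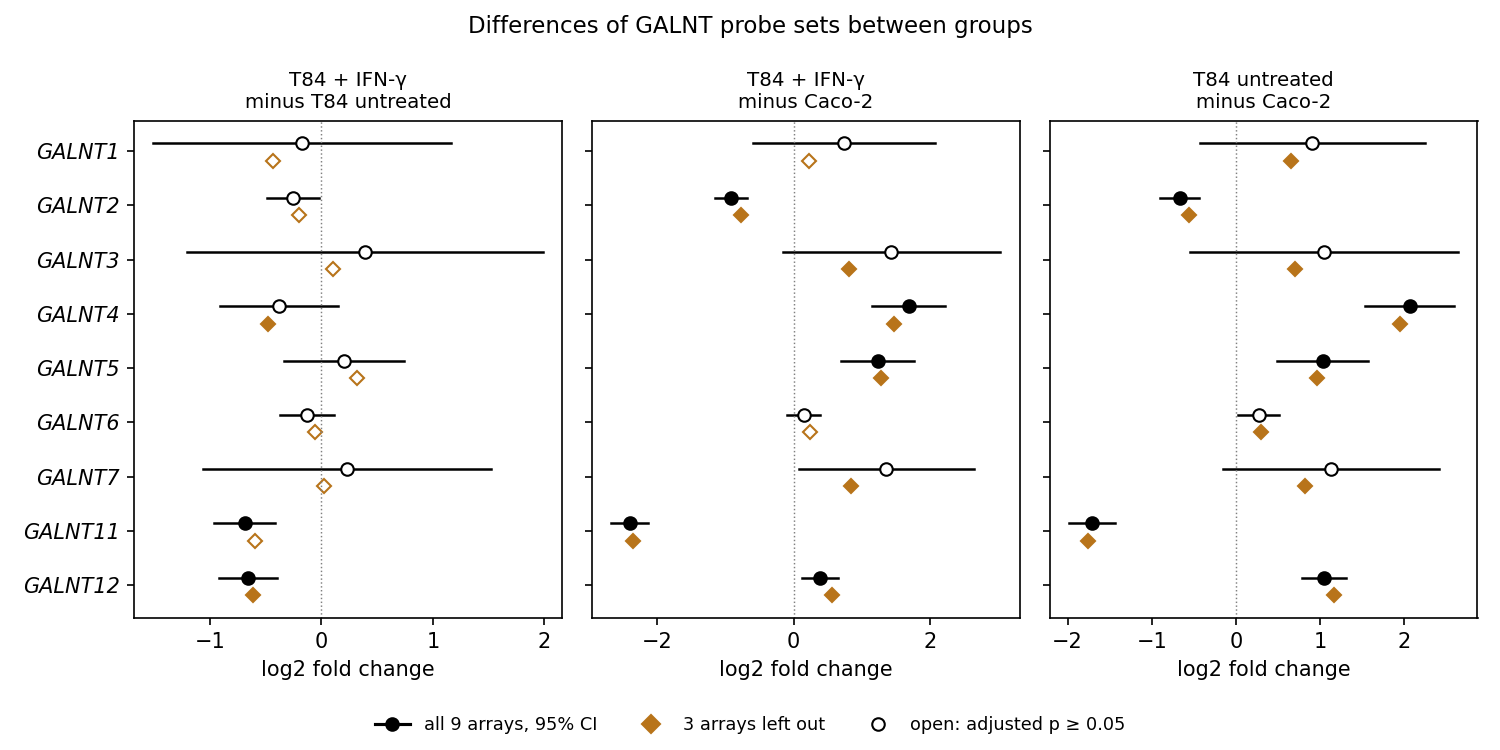
Log2 fold change (horizontal axis) of the 9 GALNT probe sets in the 3 comparisons. Black circles with bars are all 9 arrays with 95% confidence intervals, brown diamonds leave out the 3 arrays of positive score, and filled symbols have an adjusted p below 0.05. GALNT1, GALNT3 and GALNT7 have the widest intervals.

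Differences between 2 members on the same array are unchanged by a constant shift of all its log2 values. Normalization that depends on signal level can still change them. The shared deviation largely cancels where both members carry it. GALNT3 minus GALNT1, set relative to its Caco-2 mean, was 0.81, 0.63 and 0.64 in treated T84, against 0.22, 0.16 and 0.02 in untreated T84. All 3 treated arrays lay above the untreated ones, replicate 3 of each included, and the means differed by 0.56. GALNT7 minus GALNT1 was 0.65, 0.56 and 0.64 in treated T84, against 0.01, 0.31 and 0.34 in untreated T84, again without overlap. GALNT1 thus lay lower relative to GALNT3 and GALNT7 on the treated arrays. GALNT3 minus GALNT7 overlapped between all 3 groups. These pairs were picked after their values were seen. Of all 36 pairs of members, 16 did not overlap between treated and untreated T84, beside 36.2% of all pairs of probe sets on the array, and 6 of the 16 included GALNT12. No test was made of these differences.

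**Figure D4:**
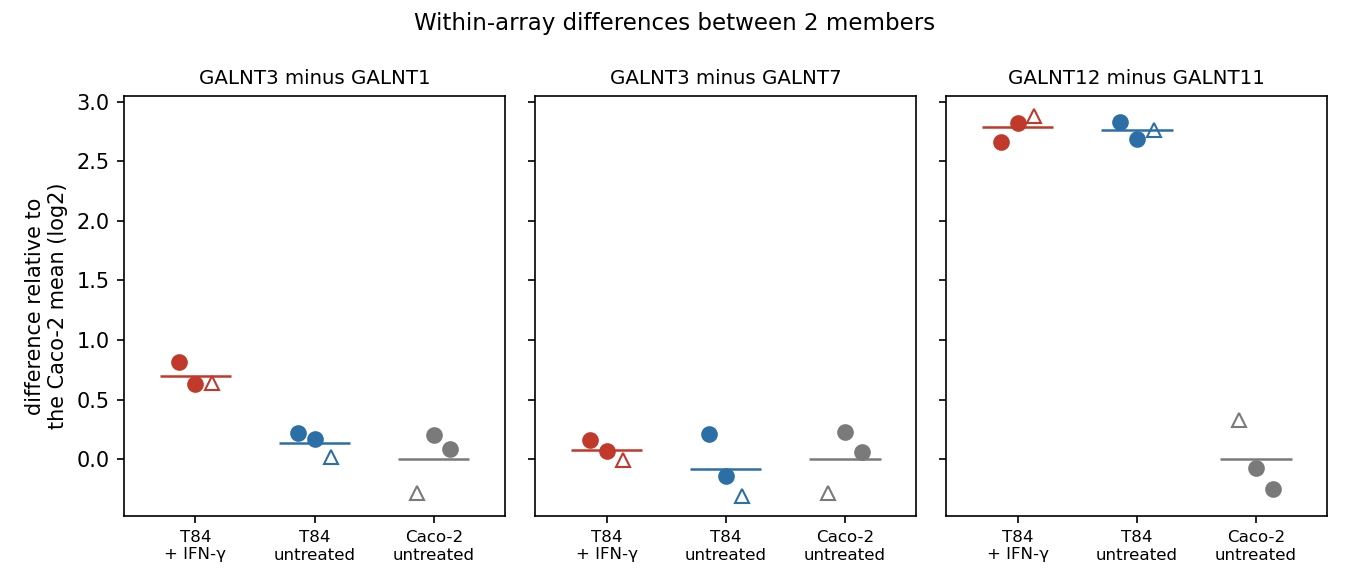
Within-array difference in log2 signal between 2 members, relative to its Caco-2 mean, with 1 point per array and lines at group means. GALNT3 minus GALNT1 lies from 0.63 to 0.81 in treated T84 and from 0.02 to 0.22 in untreated T84, GALNT3 minus GALNT7 overlaps between the groups, and GALNT12 minus GALNT11 is 2.79 units above the Caco-2 mean in treated T84 and 2.76 above it in untreated T84. Open triangles are the 3 arrays of positive score.

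The isoenzymes of treated T84 and of Caco-2, the line that lacks the epitope, were compared next, followed by untreated T84 and Caco-2. Both comparisons use the same Caco-2 arrays. In treated T84 against Caco-2, 3 of 9 members were higher and 2 lower, beside 19.4% higher and 26.2% lower over all probe sets. In untreated T84 against Caco-2 the counts were also 3 higher and 2 lower, beside 19.5% and 24.2%. The groups did not overlap for 7 members in the first and 5 in the second, beside 53.5% and 49.6% of all probe sets. The medians of the members were 0.74 and 1.03, beside 0.02 and 0.02 over all probe sets.

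GALNT11 was the member that differed most between treated T84 and Caco-2, whereas GALNT4 differed more between untreated T84 and Caco-2. Its log2 signal was 7.28, 6.85 and 6.79 in treated T84 and 7.66 in untreated T84, against 9.29, 9.38 and 9.46 in Caco-2. The 3 groups did not overlap, with Caco-2 highest and treated T84 lowest. Against Caco-2, GALNT11 was 5.28-fold lower in treated T84 (95% confidence interval 4.37 to 6.37, limma adjusted p = 6.02e-07) and 3.28-fold lower in untreated T84 (2.72 to 3.96, adjusted p = 5.98e-06). Leaving out the 3 arrays, it was 5.10-fold and 3.38-fold lower.

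GALNT2 was also lower in T84. It was at 8.81 ± 0.10 in treated T84 and 9.06 ± 0.11 in untreated T84, against 9.73 ± 0.18 in Caco-2 (SD, n = 3 each), where the arrays read 9.94, 9.68 and 9.58. All Caco-2 arrays lay above all T84 arrays. The decrease was 1.90-fold in treated T84 (1.61 to 2.23, limma adjusted p = 8.67e-05) and 1.59-fold in untreated T84 (1.35 to 1.87, adjusted p = 0.000705).

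GALNT4 had the largest called increase in T84 against Caco-2, treated or not. Its log2 signals in Caco-2 were 5.18, 5.94 and 6.05, below every T84 array. These were low signals, as the dimmest 25% of probe sets had means over all arrays of up to 5.41. Against Caco-2 GALNT4 was 3.21-fold higher in treated T84 (2.22 to 4.63, limma adjusted p = 0.000344) and 4.17-fold higher in untreated T84 (2.89 to 6.03, adjusted p = 0.000108). Without the 3 arrays of positive score it was 2.77-fold and 3.85-fold higher. The reference annotation overlaps GALNT4 with a readthrough gene, POC1B-GALNT4, which this probe set may also read.

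GALNT12, its relative, was at 8.23, 7.92 and 7.82 in Caco-2. Untreated T84 arrays lay clearly above these and treated T84 arrays just above. It was 2.07-fold higher in untreated T84 (1.72 to 2.48, limma adjusted p = 9.58e-05). In treated T84 it was 1.31-fold higher (1.09 to 1.57, adjusted p = 0.0224). That second call was lost without treated replicate 1, Caco-2 replicate 2 or Caco-2 replicate 3, with adjusted p values of 0.0767, 0.0713 and 0.0769, and over 22 alternatives its adjusted p ran from 7.57e-05 to 0.772. Untreated T84, treated T84 and Caco-2 thus stood in that order, each step passing over all arrays.

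GALNT5, an isoenzyme found mainly in the gastrointestinal tract, was at 8.73, 8.53 and 7.94 in treated T84 and 8.48, 8.15 and 7.97 in untreated T84, against 6.82, 7.33 and 7.36 in Caco-2. The T84 groups overlapped with each other and lay above Caco-2. GALNT5 was 2.35-fold higher in treated T84 (1.61 to 3.41, limma adjusted p = 0.00240) and 2.04-fold higher in untreated T84 (1.40 to 2.96, adjusted p = 0.00670).

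GALNT6 was close in the lines. It was at 9.30, 9.28 and 9.31 in treated T84 and 9.46, 9.23 and 9.57 in untreated T84, against 9.35, 9.07 and 9.04 in Caco-2, and all groups overlapped. Its log2 difference from Caco-2 was 0.15 in treated T84 (95% confidence interval -0.10 to 0.39) and 0.27 in untreated T84 (0.03 to 0.51), neither of which passed (limma adjusted p = 0.303 and 0.0718). The untreated difference passed without untreated T84 replicate 2 (adjusted p = 0.0211) or without Caco-2 replicate 1 (adjusted p = 0.0113), and over 22 alternatives its adjusted p ran from 0.000807 to 0.509. The suffix of its probe set marks it as shared among transcripts.

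GALNT1, GALNT3 and GALNT7 were each higher on average in T84, with none past the test over all arrays. GALNT3, which glycosylates the phosphate hormone FGF23, had log2 differences from Caco-2 of 1.43 ± 0.69 (SE) in treated T84 and 1.04 ± 0.69 in untreated T84. GALNT7 had 1.36 ± 0.56 and 1.13 ± 0.56, and GALNT1 0.74 ± 0.58 and 0.91 ± 0.58. All of these values shrank when the 3 arrays were left out, and Caco-2 replicate 1 was the lowest array of all for each gene.

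Without the 3 arrays, 7 of 9 members passed in treated T84 against Caco-2 and 9 of 9 in untreated T84, beside 47.2% and 45.3% of all probe sets. Leaving out only the 2 that stand apart, 7 and 8 passed, beside 50.8% and 45.4%. GALNT3 was then higher by 0.81 in treated T84 (limma adjusted p = 0.0106) and by 0.70 in untreated T84 (adjusted p = 0.0195), but neither passed when only the 2 arrays were left out (0.61 and 0.70, adjusted p = 0.0634 and 0.0584). GALNT7 was higher by 0.84 and 0.82 (adjusted p = 0.00211 and 0.00253). GALNT1 was higher by 0.66 in untreated T84 (adjusted p = 0.00476), whereas its difference of 0.23 in treated T84 did not pass (adjusted p = 0.161). GALNT6 was higher by 0.29 in untreated T84 (adjusted p = 0.0339), and its difference of 0.24 in treated T84 passed when only the 2 arrays were left out (adjusted p = 0.0278). Over all 22 alternatives, adjusted p values of the GALNT3 differences from Caco-2 reached 0.529 in treated and 0.729 in untreated T84, those of GALNT7 0.538 and 0.598, and those of GALNT1 0.912 and 0.816.

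Of the pairs of members, that of GALNT12 and GALNT11 was picked after its values were seen. GALNT12 minus GALNT11 was 2.79 ± 0.12 above its Caco-2 mean in treated T84 and 2.76 ± 0.07 in untreated T84 (SD, n = 3 each). In Caco-2 itself it ran from -0.25 to 0.33. GALNT11 had identical values on all 3 untreated T84 arrays, so the SD of 0.07 there is that of GALNT12 alone. The 2 genes fell by a like amount with interferon gamma, which left this difference nearly the same in both T84 groups. Of the 36 pairs, 24 did not overlap between treated T84 and Caco-2 and 18 between untreated T84 and Caco-2, beside 67.9% and 64.2% of all pairs of probe sets, so the members did not part the lines more often than the array at large. All 8 pairs with GALNT11 were among them in each comparison. Small differences between the lines depended on scaling. With each array centred on 51 ribosomal protein probe sets, the median over all probe sets moved to 0.46 in treated T84 against Caco-2 and to 0.31 in untreated T84, with 6 and 5 members higher and 2 lower in each. All probe sets then split into 911 higher and 180 lower in treated T84, against 244 and 330 as deposited.

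The other GALNT family genes complete the set of isoenzymes. Of 9 measured, among 10 listed, 0 passed in treated against untreated T84 in limma and 1 had an unadjusted p below 0.05, with a median log2 fold change of 0.01. Against Caco-2, 2 were higher and 1 lower in each comparison. GALNT18 was higher by 0.84 ± 0.14 (SE) in treated T84 and 0.63 ± 0.14 in untreated T84, GALNT8 by 0.20 ± 0.05 and 0.25 ± 0.05, and GALNT16 was lower at -0.24 ± 0.05 and -0.27 ± 0.05 (limma adjusted p at or below 0.0143). The other 6 measured passed in none of the comparisons.

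The steps on either side of the GALNT reaction were read from lists of pathway genes. Of 9 measured genes listed for UDP-GalNAc supply, 0 passed in limma in treated against untreated T84, and 0 had an unadjusted p below 0.05. In treated T84 against Caco-2, 2 were higher and 3 lower, beside 19.4% and 26.2% of all probe sets. In untreated T84 1 was higher and 3 lower, beside 19.5% and 24.2%. GFPT1, which commits fructose-6-phosphate to hexosamine synthesis, was higher by 0.96 ± 0.10 and 0.93 ± 0.10. The nucleotide sugar transporter genes SLC35D2 and SLC35B4 were lower, SLC35B4 at -1.96 ± 0.08 and -1.97 ± 0.08. These values do not measure transport of UDP-GalNAc itself.

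Among 5 measured genes listed for extending Tn to core structures and branching these, 0 passed in limma in treated against untreated T84. There, 0 had an unadjusted p below 0.05 (median 0.19). Against Caco-2, 3 were higher and 0 lower in each comparison, beside 19.4% and 26.2% of all probe sets in treated T84. In untreated T84 those shares were 19.5% and 24.2%. C1GALT1, the core 1 synthase, was higher by 2.36 ± 0.51 in treated and 1.88 ± 0.51 in untreated T84, and its chaperone gene C1GALT1C1 by 1.14 ± 0.12 and 0.95 ± 0.12. GCNT3, which makes core 2 and core 4 branches in mucosa, was higher by 2.02 ± 0.13 and 1.98 ± 0.13. C1GALT1 was lowest on the array of positive score in each group, at 4.54 in Caco-2 against 6.02 and 5.96 on the others. Without the 3 arrays 3 were higher and 1 lower in each comparison, beside 47.2% and 45.3% of all probe sets called in either direction.

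The 5 sialyltransferase genes listed act on Tn, on core 1 or, as ST6GALNAC3 and ST6GALNAC4 do, on acceptors already sialylated. In treated against untreated T84, ST6GALNAC2 rose by 1.24 ± 0.12 and ST6GALNAC1, the sialyl-Tn synthase, fell by 0.43. There was no other call among the 5, beside 4.37% of all probe sets higher and 5.8% lower. Against Caco-2, 1 was higher and 3 lower in treated T84, beside 19.4% and 26.2% of all probe sets. In untreated T84 1 was higher and 4 lower, beside 19.5% and 24.2%. ST6GALNAC1 was the one higher, by 3.93 ± 0.05 and 4.36 ± 0.05.

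Of 16 measured mucin and mucin-like substrate genes, 3 rose in treated against untreated T84 and none fell (median -0.02): MUC4 by 1.42 ± 0.08, MUC1 by 1.26 ± 0.05 and MUC13 by 0.40 ± 0.07 (limma adjusted p at or below 0.0104). These membrane mucins rose on the same arrays on which GALNT11 and GALNT12 fell. Against Caco-2, 7 were higher and 3 lower in treated T84, beside 19.4% and 26.2% of all probe sets. In untreated T84 5 were higher and 3 lower, beside 19.5% and 24.2%. The largest difference from Caco-2 among them was that of CD44, at 4.39 ± 0.11 and 4.68 ± 0.11. These lists were read beside the shares of all probe sets given above.

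For the 3 members with the widest range of group means, the genes most like them were sought among 909 named genes outside the family, by the root mean square difference over the 9 arrays after centring each gene on its own mean. GALNT11, with a range of 2.40 log2 units, was nearest to RPL34 (0.19), NOTCH3 (0.24) and WNT11 (0.25). All 3 were highest in Caco-2 and lowest in treated T84. GALNT4, with a range of 2.06, was nearest to CD58 (0.23), COG5 (0.32) and IDS (0.32), all lowest in Caco-2. GALNT3, with a range of 1.43, owed its place here to the arrays of positive score. Without them its largest difference between groups was 0.81, beside 1.28 for GALNT5 and 1.17 for GALNT12. The genes nearest to GALNT3 were B3GNT5 (0.12), SLC35A3 (0.27) and HSP90AA1 (0.30). Their SDs in Caco-2 were 1.37, 0.89 and 0.86 beside 1.43 for GALNT3, and the likeness was not computed without Caco-2 replicate 1.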

How the data were processed

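Single-colour Affymetrix-protocol arrays were hybridised with biotin-labelled cRNA from 0.5 ug of Trizol-extracted total RNA, per the labels' protocols. The deposited log2 values come from RMA, run by the authors per the submitters' processing notes, with version, probe definitions and later filters not stated there. They entered the fit unchanged.

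Probe sets were named by RefSeq identifier without version through a RefSeq table, which gave 1043 of 1259 probe sets 1 symbol, for 927 genes. One linear model with group as the only factor was fitted to all 9 arrays and 1259 probe sets in limma 3.58.1 (R 4.3.3) with moderation (6 residual and 2.12 prior degrees of freedom). The 3 pairs of groups were compared with Benjamini-Hochberg adjustment over all probe sets and a threshold of 0.05. Errors are SDs for means and standard errors of the fit for log2 fold changes. The fit was tested on simulated data. Having only 3 arrays a group limits precision.

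All members are named. Of each pathway list, at most 4 members by smallest adjusted p in a comparison are named. The 3 GALNT genes with the widest range of group means have their 3 nearest genes named. The members and lists were chosen with earlier results of these data known. Of the 9 pairs of same-numbered arrays, 3 had deviations that correlated above 0.1 (range -0.64 to 0.56). Between treated and untreated T84 these correlations were 0.39, -0.02 and 0.56. Deviations sum to 0 within a group and are largely 1 shared component, so this check cannot decide whether the numbers pair the samples. Alternatives changed which arrays were fitted, the scaling, the filters, the thresholds, the moderation and the weighting, or added the replicate block. Leaving out 3 or 2 arrays and a covariate for the shared deviation were added after the data were seen. Figures used matplotlib 3.10.9 and tables pandas 2.3.3 in Python 3.11.15. A motif search of the promoters is not reported here.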

Additional observations from a re-analysis of the deposited data

How the results depend on the processing

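Calls of GALNT genes, which are also the counts of GALNT probe sets, numbered 2 in treated against untreated T84, and stayed at 2 with any single array left out. They numbered 5 with the covariate, 0 with a 2-fold minimum and 0 with arrays centred on the GALNT median. The covariate, made from these arrays, changed standard errors but no log2 fold change. Without the 3 arrays there were again 2, but GALNT4 stood in place of GALNT11. In treated T84 against Caco-2 the count of 5 was 8 with ribosomal centring, 8 with the covariate, 3 with a 2-fold minimum and 1, GALNT11, with GALNT-median centring, and 4 to 5 with single arrays left out. In untreated T84 against Caco-2 the count of 5 was 9 without the 3 arrays, 8 without the 2 that stand apart, 9 with the covariate, 1 with GALNT-median centring and 5 to 6 with single arrays left out. GALNT12 in treated T84 against Caco-2 turned to -0.22 with GALNT-median centring (limma adjusted p = 0.772), the only called GALNT difference that changed sign.

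Over all probe sets, 128 were called in treated against untreated T84 (55 higher, 73 lower). This was 231 with array weights, 341 with ribosomal centring (289 higher, 52 lower), 195 with the covariate, 79 at an adjusted p of 0.01, 28 with a 2-fold minimum and 8 with GALNT-median centring, and 86 to 178 with single arrays left out. In treated T84 against Caco-2, 574 became 1091 with ribosomal centring, 215 with a 2-fold minimum and 149 with GALNT-median centring, and 521 to 640 with single arrays left out. In untreated T84 against Caco-2, 550 (245 higher, 305 lower) became 1032 (837 higher, 195 lower), 194 and 135 under the same settings, and 480 to 600 with single arrays left out. The cause of these shifts was not tested. With the replicate block, the GALNT counts were 2, 5 and 5 in the 3 comparisons. Those over all probe sets were 109, 534 and 499, so the block changed no count by over 1.5 times.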
